A study of Mus musculus with 6 samples.

Results

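The genes that store, export and sense iron were followed in whole mouse kidneys at postnatal day 13. They were 10 genes chosen by name from the 24422 gene symbols in the count tables: the ferritin subunits Fth1 and Ftl1, the ferritin receptor Ncoa4, the exporter Slc40a1, the ferroxidases Cp and Heph, the iron sensors Aco1, Ireb2 and Fbxl5, and the hormone gene Hamp. All were present in the tables. The 3 Control kidneys are labelled wild type, and the 3 TfR1 knockout kidneys carry the genotype Tfr1f/f;SixCre, in which exons of the transferrin receptor gene Tfrc are floxed and removed by Six2CreEGFP, a recombinase active in the progenitors of the nephron. All 6 kidneys are labelled C57BL/6 and an iron-sufficient diet of 220 ppm. Collecting duct, stroma, vessels and blood cells lie outside this Cre lineage, the study describes nephron cells that escaped deletion, and each library mixes all of them.

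Cells keep spare iron inside ferritin, a hollow shell of heavy and light subunits, and release it when Ncoa4 carries ferritin to the lysosome. Ferroportin, the product of Slc40a1, is the only known cellular exporter of iron that is not held in heme. It hands iron to ferroxidases, which load it onto transferrin, and it is removed from the membrane by hepcidin, the liver hormone encoded by Hamp. In the cytosol, the iron regulatory proteins IRP1 (Aco1) and IRP2 (Ireb2) bind a hairpin called the iron-responsive element when iron is scarce. A hairpin in the 5′ untranslated region of an mRNA then blocks its translation, whereas hairpins in the 3′ untranslated region of Tfrc protect that mRNA from decay. Fbxl5 marks IRP2 for destruction when iron is plentiful. Control by a 5′ hairpin acts on translation, which read counts do not measure.

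The hairpins that the sensors read are shown because they link members of this gene set to each other. Annotated transcripts (GENCODE M1, mm9 build) were searched on the sense strand for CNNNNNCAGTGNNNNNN, that is a bulged C, the 6-base loop CAGTGN, and 5 bases on each side of the loop that had to pair. A match was found in the 5′ untranslated region of 3 members. The bulged C and the loop are in capitals.
Fth1 (chr19:10057222-10057251, plus strand): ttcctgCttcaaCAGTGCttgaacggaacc
Ftl1 (chr7:52715148-52715177, minus strand): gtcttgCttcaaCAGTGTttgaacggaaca
Slc40a1 (chr1:45982309-45982338, minus strand): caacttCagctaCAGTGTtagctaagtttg
The Fth1 and Ftl1 windows were identical at 26 of 30 bases, and each matched that of Slc40a1 at 13. The bulged C lay at base 36 of the 167-base Fth1 leader, base 84 of the 253-base Ftl1 leader and base 108 of the 331-base Slc40a1 leader. Of 19370 genes with a 5′ region of at least 17 bases, the length of the motif, 33 (0.17%) held the motif. The other 7 members had no match in either untranslated region, and Tfrc had 4 matches in its 3′ region. The search missed 4 other transcripts listed for such elements (Slc11a2, Epas1, Cdc14a and Cdc42bpa), so the absence of a match says little.

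In what follows the values of a group are given in the order of replicates 1, 2 and 3. Total counts ran from 16591156 to 22898008 per library. The targeted gene did not separate the groups. Tfrc had 5534, 6485 and 3667 normalized counts (raw counts divided by DESeq2's median-ratio size factors) in Control and 6976, 4045 and 5898 in knockout kidneys, and the log2 fold change of 0.11 (SE 0.29) missed the threshold (DESeq2 adjusted p 0.853). It was -0.095 without Control replicate 3 and -0.072 without knockout replicate 1. Gene counts cannot show loss of the floxed exons alone, so Tfrc does not check the group labels.

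Among the 10 members, only Cp passed an adjusted p under 0.05, and it was higher in knockout kidneys (DESeq2 Wald test, adjusted over all genes tested). Hamp was too rare to be given an adjusted p, so this is 1 of 9 genes tested, against 14.9% of all genes tested in either direction and 7.74% that passed as higher. edgeR's quasi-likelihood test also called 1 of 9, again Cp, against 6.02% of all genes, or 3.22% as higher. As lower, 0 members passed under DESeq2 (7.18% of all genes), edgeR (2.8%) or limma-voom, and 0 were lower at an unadjusted DESeq2 p under 0.05. At a DESeq2 adjusted p under 0.1, Fth1 joined Cp, 2 of 9 against 20.2% of all genes. Unadjusted, 3 members passed, all higher (Cp, Fth1 and Ncoa4), where 27.3% of all genes passed in either direction. For the unadjusted p and for limma-voom, the share of all genes in each direction was not computed. The median log2 fold change of the 9 was 0.14, and that of all genes tested 0.0071. In whole-kidney RNA, fewer cells of a type and less RNA per cell cannot be told apart.

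**Figure D1:**
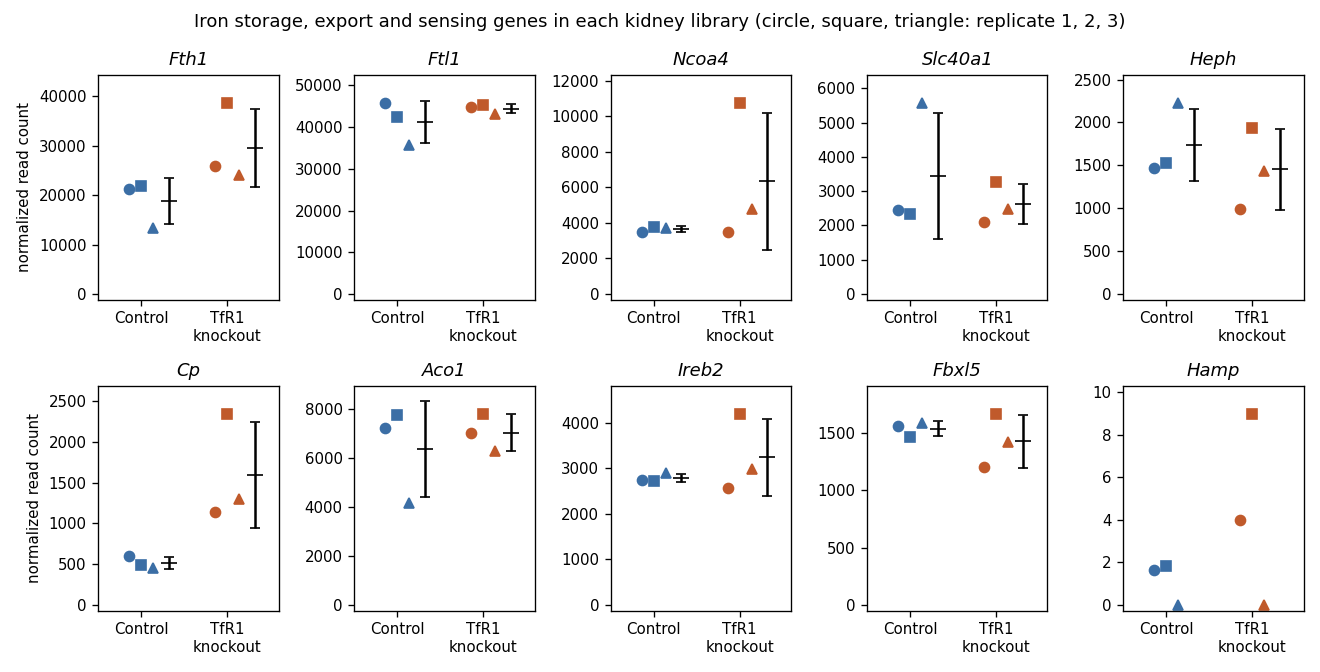
Normalized read counts of the 10 genes in each library, Control in blue and TfR1 knockout in orange. Each panel has its own linear axis from 0, the marker shape gives the replicate, and the black bar is the mean ± SD of 3 libraries (not drawn for Hamp); the groups separate for Cp and Fth1, and knockout replicate 2 (square) is the highest knockout library in each panel.

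Cp (mm9 chr3:19857054-19909145) encodes ceruloplasmin, a copper enzyme that oxidizes iron leaving the cell, found in plasma and in a membrane-anchored form. It had 600.2, 492 and 452 normalized counts in Control kidneys, and 1138, 2340.0 and 1304 in knockout kidneys. Every knockout library stood above every Control library, and knockout replicate 2 was the highest of all. The mean rose from 515 ± 76.7 to 1594 ± 651 (SD, n = 3 each), a 3.09-fold difference with a 95% interval of 2.03 to 4.72, or 1.63 on the log2 scale with SE 0.31 (DESeq2 adjusted p 6.93e-06; edgeR adjusted p 0.0227). The rise was 1.25 on the log2 scale without knockout replicate 2 and 1.82 without knockout replicate 1. Cp overlaps Hps3 on the opposite strand. Hps3 stood at 543 ± 41.3 and 565 ± 54.6 normalized counts (log2 fold change 0.06, DESeq2 adjusted p 0.868). The strand setting of the counting is not given in the sources used here, and the part of the overlap in the Cp counts was not tested. Gene counts do not separate the secreted and anchored forms.

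Heph (mm9 chrX:93650698-93769824) encodes hephaestin, the membrane-bound relative of ceruloplasmin. Its normalized counts were 1472, 1522 and 2223 in Control and 986, 1939.6 and 1432 in knockout kidneys. The groups overlapped, and the log2 fold change of -0.26 (SE 0.30) did not pass (DESeq2 adjusted p 0.621; 95% interval of the fold 0.555 to 1.26). It was -0.046 without Control replicate 3, -0.045 without knockout replicate 1 and -0.52 without knockout replicate 2. Whether the changes of Cp and Heph differed from each other was not tested. Heph overlaps Hsf3 on the opposite strand, which had 10.9 ± 3.11 and 9.74 ± 2.93 normalized counts, and the pseudogenes Gm14934 and Gm14935 on its own strand, for which no counts were used here.

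Ceruloplasmin is also made by macrophages and in large amounts by liver, so markers of those cells were summed beside it. Of 15 macrophage genes 12 rose and 0 fell (7 and 0 under edgeR), and their summed normalized counts went from 3395 to 5786 over Control libraries to 9723 to 12232 over knockout libraries. Of 10 liver genes 7 rose and 0 fell (3 and 0 of 9 under edgeR), with sums from 5530.0 to 6257 in Control and 6204 to 20886 in knockout kidneys, which overlapped. None of either list was at 0 in all libraries. Ttr, the transthyretin gene, made up most of the liver sum, with 3164 to 4815 normalized counts in Control and 4038 to 15134 in knockout libraries (DESeq2 adjusted p 0.0332; edgeR adjusted p 0.14). Alb, the albumin gene, had 14.0 to 28.0 in Control and 67.2 to 433 in knockout libraries. With Ttr so far above Alb, the sum cannot be read as a measure of liver cells. The list was not uniformly higher. Mean normalized counts of Serpina1a went from 992 in Control to 513 in knockout kidneys, and those of Apoa2 from 120 to 70.4. Neither passed (DESeq2 adjusted p 0.114 and 0.231). The part of either cell type in the change of Cp was not tested.

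Fth1 (mm9 chr19:10057193-10059582) encodes the ferritin heavy subunit, which carries the ferroxidase site of the shell. It had 21216, 21757 and 13384 normalized counts in Control and 25844, 38570.2 and 24167 in knockout kidneys. The groups did not overlap. That held for Fth1 and Cp alone, 2 of the 9 members, and for 33.7% of all genes tested (16.9% with the knockouts higher and 16.9% lower). The mean was 18786 ± 4686 in Control and 29527 ± 7876 in knockout kidneys (SD, n = 3 each). That 1.57-fold difference missed the threshold (95% interval 1.08 to 2.30, or 0.65 on the log2 scale with SE 0.28; DESeq2 adjusted p 0.0966; edgeR adjusted p 0.205). It was 0.42 on the log2 scale without knockout replicate 2 and 0.78 without knockout replicate 3.

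Ftl1 (mm9 chr7:52713314-52715254) encodes the light subunit, which helps iron mineralize inside the shell. Its normalized counts were 45696, 42503 and 35796 in Control and 44804, 45315 and 43213 in knockout kidneys. The groups overlapped, and the change was small (log2 fold change 0.10, SE 0.16, DESeq2 adjusted p 0.715). The 95% interval, 0.871-fold to 1.33-fold, was the narrowest among the members. Ftl1 has 4 other copies in the mm9 genome that match at least 50% of its transcript at 95% identity or more, the closest at 99.5%. Reads that fit several copies may have been left out or placed elsewhere, so its level is uncertain.

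Within a library the ratio of Fth1 to Ftl1 counts does not depend on scaling. It was 0.464, 0.512 and 0.374 in Control and 0.577, 0.851 and 0.559 in knockout kidneys. All knockout ratios were above all Control ratios, by 1.46-fold on average (two-sided exact permutation test, p 0.1, the smallest that 3 against 3 libraries allow; adjusted p 0.2 over 4 ratios). The design therefore cannot bring this difference past the threshold.

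Ncoa4 (mm9 chr14:32973051-32993041), the receptor that delivers ferritin for autophagy, was even among Control kidneys and uneven among knockouts. It had 3477, 3745 and 3741 normalized counts in Control kidneys, and 3502, 10728 and 4804 in knockout kidneys. Knockout replicate 1 lay within the Control range and replicate 2 far above it. The log2 fold change of 0.80 (SE 0.39) did not pass (DESeq2 adjusted p 0.155; edgeR adjusted p 0.239). It was 0.19 without knockout replicate 2, and 1.09 with a DESeq2 adjusted p of 0.0121 without knockout replicate 1, so single libraries decided it. A copy on chromosome 12 matches its transcript at 99.9% identity, and how reads were divided between the copies is uncertain. The ratio of Fth1 to Ncoa4 counts overlapped between groups (exact permutation p 0.9, n = 3 each).

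**Figure D2:**
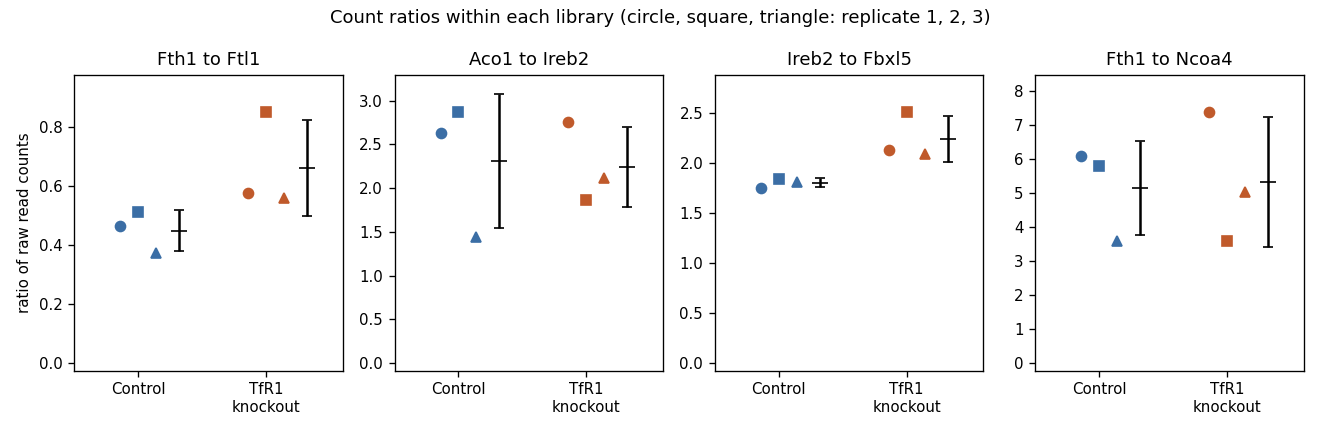
Ratios of raw read counts between pairs of genes within each library, Control in blue and TfR1 knockout in orange, with the mean ± SD of 3 libraries in black. The knockout libraries lie above the Control libraries for Fth1 to Ftl1 (0.559 to 0.851 against 0.374 to 0.512) and for Ireb2 to Fbxl5, and overlap them for the other pairs.

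Slc40a1 (mm9 chr1:45964915-45982439) encodes ferroportin. It had 2437, 2334 and 5558 normalized counts in Control and 2113, 3275 and 2487 in knockout kidneys. Control replicate 3 alone stood out, and the other 5 libraries were of one range. With all libraries the log2 fold change was -0.39 (SE 0.37, DESeq2 adjusted p 0.525), and without Control replicate 3 it was 0.14, with the opposite sign. In that library the summed stroma markers stood at 130981 normalized counts, against 67704 and 65365 in the other Control libraries, endothelial markers at 25193 against 15794 and 15532, and proximal tubule markers at 72852 against 144422 and 143608. Macrophages, which export iron through ferroportin, had summed markers of 5786 there against 3395 and 3453. The erythroid sum, made up mostly of Alas2, was 5118 against 1691 and 2933. Thick ascending limb and distal convoluted tubule markers stood at 68827 against 118089 and 130244, collecting duct markers at 9969.7 against 16253 and 16792, and podocyte markers at 10387 against 14524 and 15933. Over the knockout libraries, stroma sums were 33079 to 65104, endothelial sums 16894.5 to 19913, macrophage sums 9723 to 12232 and erythroid sums 1276 to 5666. The part of these cells in the Slc40a1 level of Control replicate 3 was not tested.

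Hamp (mm9 chr7:31727390-31729036) was close to absent. Raw counts were 2, 2 and 0 in Control and 4, 7 and 0 in knockout kidneys. The groups overlapped, and counts this low could not show a difference.

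Aco1 (mm9 chr4:40090114-40146042) encodes IRP1, which is an aconitase while it holds an iron-sulfur cluster. Its normalized counts were 7227, 7771 and 4144 in Control and 7043, 7794 and 6269.8 in knockout kidneys. All knockout libraries lay within the Control range or just above it. The log2 fold change was 0.14 (SE 0.27, DESeq2 adjusted p 0.785), and it was -0.095 without Control replicate 3.

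Ireb2 (mm9 chr9:54711562-54760341), the gene of IRP2, had 2747, 2712 and 2882 normalized counts in Control and 2559, 4182 and 2971 in knockout kidneys. Only knockout replicate 2 was far from the Control range. The log2 fold change was 0.22 (SE 0.22, DESeq2 adjusted p 0.567) and fell to -0.0039 without that library. Fbxl5 (mm9 chr5:44135855-44212878) had 1563, 1469 and 1589 in Control and 1201, 1666 and 1419 in knockout kidneys. Its groups overlapped as well (log2 fold change -0.11, SE 0.18, DESeq2 adjusted p 0.751), and the sign turned without knockout replicate 1 (0.0016). Fbxl5 overlaps Bst1 on the opposite strand, which had 384 ± 148 and 378 ± 38.0 normalized counts.

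The ratio of Ireb2 to Fbxl5 was nonetheless set apart between groups. It was 1.76, 1.85 and 1.81 in Control and 2.13, 2.51 and 2.09 in knockout kidneys. The mean difference was 1.24-fold (two-sided exact permutation test, p 0.1, again the smallest possible; adjusted p 0.2 over 4 ratios). Aco1 to Ireb2 did not differ beyond the spread, at 2.63, 2.87 and 1.44 in Control and 2.75, 1.86 and 2.11 in knockout libraries (exact permutation p 1).

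**Figure D3:**
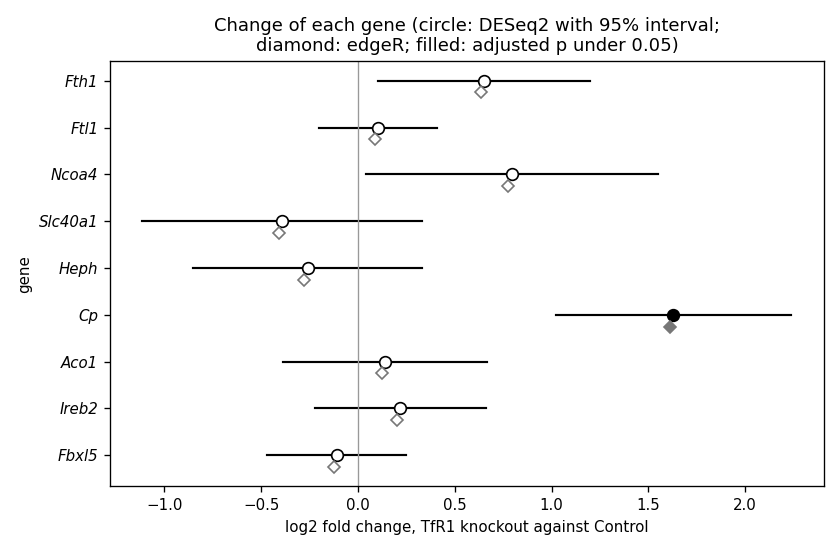
Log2 fold change of the 9 genes with an adjusted p (knockout against Control), with the 95% interval of DESeq2 as a line and edgeR's estimate as a diamond. Filled marks passed an adjusted p under 0.05; only those of Cp are filled, at 1.63 and 1.61.

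The members shared a feature that their names did not choose: knockout replicate 2 was the highest of the 3 knockout libraries for 9 of the 9 genes tested. Over all genes tested it was the highest for 40.1%. Scaled by total count instead, it was the highest for 6 of the 9 members and for 23% of all genes. Control replicate 3 was the highest Control library for 4 and the lowest for 4 of the 9. That is near the shares over all genes, 43.4% highest and 43.9% lowest, and so is not particular to the members.

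Levels between genes were compared as normalized counts per kilobase of the longest annotated transcript. In Control kidneys Ftl1 came first (42698 ± 5219.8), then Fth1 (21692 ± 5411), Aco1 (1467 ± 449.8), Slc40a1 (1019 ± 542), Ncoa4 (899 ± 37.7), Ireb2 (479 ± 15.4), Heph (367 ± 88.5), Fbxl5 (364 ± 14.9), Cp (113 ± 16.8) and Hamp (2.95 ± 2.56; mean ± SD, n = 3). The library ranges of Aco1, Slc40a1 and Ncoa4 overlapped from one to the next, as did those of Ireb2, Heph and Fbxl5. In knockout kidneys Cp moved from rank 9 to rank 7 (349 ± 143), where its libraries overlapped those of Ireb2 above and Fbxl5 below it. Ftl1 and Fth1 kept the first ranks, with each apart from the next. Aco1 stayed the third by its mean (1618 ± 175), but its libraries overlapped those of Ncoa4 (1561 ± 947), which passed Slc40a1 (777 ± 176). Heph went from rank 7 to rank 9 (306 ± 101). From Aco1 down to Heph every neighbouring pair overlapped in the knockouts.

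The wider iron pathway was read from 8 lists of 73 genes chosen for this tissue, of which 68 had an adjusted p. Of these 9 rose and 2 fell (DESeq2), and 8 were called by both DESeq2 and edgeR. The share, 11 of 68, is near the 14.9% of all genes. Several lists held no called gene under DESeq2 or edgeR: ferritin chaperones (0 of 2), ferritinophagy and autophagy machinery (0 of 10, median log2 fold change 0.19), IRP2 degradation and cytosolic iron-sulfur assembly (0 of 11, median 0.058), and other transcripts with iron-responsive elements (0 of 7, median 0.11).

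Of the 9 list genes that rose, 5 were carriers of iron, heme and hemoglobin. In that list 5 of 7 were higher and 0 lower, where 7.74% of all genes tested were higher. The lists were chosen with earlier results of these data known, so this share is a description only. Hp, haptoglobin, which binds free hemoglobin, went up from 114 ± 24.8 in Control to 577 ± 89.3 in knockout kidneys (normalized counts, mean ± SD; log2 fold change 2.34, DESeq2 adjusted p 5.95e-18; edgeR adjusted p 0.00393). Lcn2, which binds iron held by siderophores, rose from 344 ± 104 to 2459.7 ± 878 (log2 fold change 2.84; edgeR adjusted p 0.00505). Alb rose from 19.2 ± 7.72 to 290.3 ± 196, and was the one of these that limma-voom did not call. Trf, the transferrin gene itself, rose from 590.4 ± 117 to 2852 ± 1190 (log2 fold change 2.27, DESeq2 adjusted p 1.45e-10; edgeR adjusted p 0.0099), and Cd163, the macrophage receptor for haptoglobin with hemoglobin, from 103 ± 75.2 to 431 ± 155, which edgeR did not call (adjusted p 0.0686). Trf and Cd163 were named after their values were seen. Cd163 is also in the macrophage list and Alb in the liver list described above.

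Of 21 hepcidin regulators tested, 2 rose and 1 fell. Stat3, which carries the interleukin signal to the Hamp promoter in liver, rose by 1.19 on the log2 scale (from 2156 ± 102 to 4908 ± 332, DESeq2 adjusted p 1.28e-15; edgeR adjusted p 0.00501), and Il6ra from 81.9 ± 15.3 to 197 ± 52.5 (log2 fold change 1.27; edgeR adjusted p 0.0468). Smad7, an inhibitor of BMP signaling, fell (log2 fold change -0.68, DESeq2 adjusted p 0.0412), a call lost under edgeR and limma-voom and on leaving out Control replicate 1 or 2 or knockout replicate 2 or 3. Of 4 other export and ferroxidase genes, the heme exporter Mfsd7b (also known as Flvcr1) rose from 780.1 ± 117 to 1504 ± 96.6 (log2 fold change 0.95; edgeR adjusted p 0.0170). Of 8 membrane import genes 1 rose and 1 fell. Slc39a8 fell from 1297 ± 181 to 589 ± 130.0 (log2 fold change -1.14, DESeq2 adjusted p 4.36e-05, edgeR adjusted p 0.0204). Slc39a14 was higher but did not pass (log2 fold change 0.59, DESeq2 adjusted p 0.118). The study reports both products, ZIP8 and ZIP14, as upregulated by the deletion. It shows them in images of ureteric bud, S-shaped bodies and proximal tubules, a measure unlike whole-kidney RNA. The legend gives no age. The study names both as candidates for compensation before birth, whereas the kidneys here are of postnatal day 13, so the values do not bear on that proposal. The ferrireductase Steap4 rose (log2 fold change 1.10, DESeq2 adjusted p 0.0262). That call was lost under edgeR (adjusted p 0.113), limma-voom and total-count scaling and on leaving out Control replicate 1 or 2 or knockout replicate 2 or 3.

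**Figure D4:**
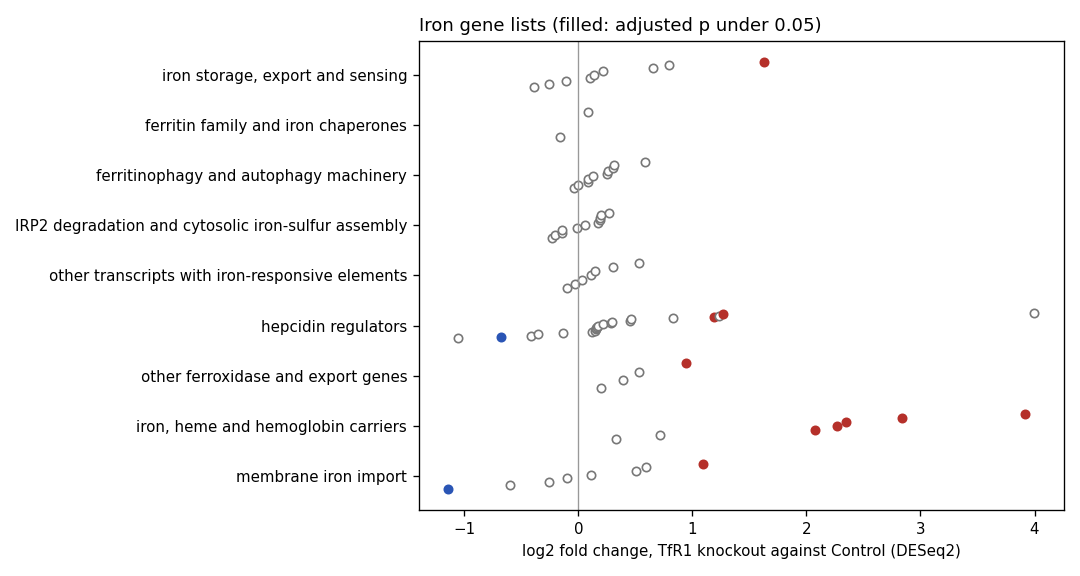
Log2 fold changes (DESeq2, knockout against Control) of the iron storage, export and sensing genes and of 8 other iron lists, 1 circle per gene tested; a gene may be in more than one list. Filled red circles rose and filled blue circles fell at an adjusted p under 0.05; the 5 filled circles of the carrier list lie between 2.07 and 3.91.

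RNA of several cell type marker lists differed between the groups. All kidney lists were detected in every library, with no gene at 0 in all. Of the thick ascending limb and distal convoluted tubule genes 8 of 8 fell (7 under edgeR), with sums from 68827 to 130244 in Control and 18193 to 34114 in knockout libraries. Of the proximal tubule genes 3 of 10 fell and 1 rose (1 and 1 under edgeR), and their sums overlapped. Of the collecting duct genes 3 of 7 rose and 1 fell (1 and 1 under edgeR). Their sums were 9969.7 to 16792 in Control and 31188 to 64486 in knockout libraries. Aqp2, with means of 4579 in Control and 30696 in knockout kidneys, made up most of the knockout sums. Of stroma genes 2 of 6 fell (0 under edgeR), with sums of 65365 to 130981 in Control and 33079 to 65104 in knockout libraries. The nearest stroma sums, 65365 and 65104, almost touched, and 130981 was Control replicate 3 alone. Of podocyte genes 1 of 5 rose (1 under edgeR), and of endothelium 0 of 6 passed under either tool. Erythroid genes passed in 0 of 4 tested by either tool, with overlapping sums. The other 4 of 8, the globin genes Hba-a1, Hba-a2, Hbb-b1 and Hbb-b2, were at 0 throughout. How the counting treated them is not known, so this does not show that their RNA was absent. Alas2 made up most of the erythroid sum in every library. The part of these shifts in the values of the iron genes was not tested.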

How the data were processed

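Poly-A RNA libraries (Illumina TruSeq, HiSeq2000) of 3 Control and 3 TfR1 knockout kidneys were used. The authors processed reads with CASAVA 1.8.2, Trimmomatic and TopHat2 2.0.11 on mm9 and deposited HTSeq read counts, not normalized, for each gene symbol; tools and build follow the submitters' processing notes. Counting mode, annotation and strand setting are not given in the sources used here. No row of unassigned reads was present. Groups and replicate numbers came from the sample titles; nothing states that the numbers pair animals, and p-values measure the spread between these samples, which may be in part technical.

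Raw counts of all genes were fitted with DESeq2 1.42.0 in R 4.3.3, the tool the study names (Wald test, median-ratio size factors, no shrinkage, Benjamini-Hochberg adjustment, independent filtering tuned at 0.05, whose floor was a mean normalized count of 3.51). Intervals are Wald intervals. edgeR 4.0.16 (quasi-likelihood, TMM) and limma 3.58.1 with voom were alternatives, beside other size factors, filters, a replicate block, and fits without 1 library each. Log2 ratios of 2 genes (raw counts plus 0.5) were compared by exact permutation. The fitting code was tested on simulated data. Transcripts, positions and genome copies (blastn 2.17.0) came from GENCODE M1 and the mm9 sequence. Symbols absent from the tables were matched through RefSeq synonyms (Flvcr1 as Mfsd7b); Ftl2 and Ahsp were not matched. Named genes are the 10 members, Tfrc, up to 3 called genes per list and direction by fold, and the 3 genes most like a called member. Members and lists were chosen with earlier results of these data known.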

Additional observations from a re-analysis of the deposited data

How the results depend on the processing

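The call of Cp and the absence of a call among lower members held under every planned fit and library left out. Members called higher numbered 2 in place of 1 at an adjusted p under 0.1 and with the replicate block (Fth1 joined in both; adjusted p 0.0179 with the block), and 1 to 2 over the fits without 1 library (Ncoa4 joined without TfR1 knockout replicate 1). Same-numbered libraries' deviations correlated at -0.0378, 0.0548 and 0.0899 and were not taken as pairs; the block changed no other member's call. Over all genes, 1277 rose and 1186 fell under DESeq2, 493 and 428 under edgeR, 485 and 456 under limma-voom, and 664 to 1531 and 575 to 1674 without 1 library, fewest without Control replicate 1 and most without knockout replicate 1. Pathway genes lower numbered 2, but 1 under edgeR and limma-voom and 1 to 4 without 1 library. The cause of these shifts was not tested. Leaving out 1 library gave both signs for Slc40a1 (-0.61 to 0.14), Aco1 (-0.095 to 0.30), Ireb2 (-0.0039 to 0.36), Fbxl5 (-0.23 to 0.0016) and Tfrc (-0.095 to 0.30), and for the log2 ratios Aco1 to Ireb2 (-0.31 to 0.19; -0.00073 with all) and Fth1 to Ncoa4 (-0.24 to 0.28; 0.025 with all). Fth1 to Ftl1 (0.35 to 0.65) and Ireb2 to Fbxl5 (0.23 to 0.36) kept their sign. Low counts limit what can be said of Hamp and, among the pathway genes, of Ftmt, Fthl17e, Hfe2 and Hephl1, which had no adjusted p, and of Tfr2 and Il6, which averaged under 10 normalized counts.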

Other observations

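Fth1 and Ftl1 together took 0.354%, 0.333% and 0.275% of all counts in Control replicates 1 to 3 and 0.367%, 0.375% and 0.356% in knockout replicates 1 to 3. The shares of the groups did not overlap, but the nearest values lay 0.354% against 0.356%.

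The genes whose log2(normalized count + 1) tracked Cp most closely over the 6 libraries were Stambp (Pearson r 0.998), Acsl4 (0.996) and Tjap1 (0.996), among the 12114 genes averaging 100 normalized counts or more. These values share libraries and a group difference and are a description only. Acsl4 rose (log2 fold change 1.70, DESeq2 adjusted p 2.91e-07), whereas Stambp and Tjap1 had log2 fold changes of 0.39 and 0.29 and did not pass (DESeq2 adjusted p 0.106 and 0.199).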
